A study of Mus musculus with 6 samples.

Results

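The axon guidance genes described here are the protein-coding genes of the Eph receptors and their ephrin ligands, the semaphorins of classes 3 to 7 with their plexin and neuropilin receptors, the Slits and Robos, and the netrins with Dcc, Neo1 and the Unc5 receptors. The rule that takes them reads gene symbols and no measured values, though the set itself was proposed with earlier results of these data known. The annotation holds 70 such symbols, of which 69 have a row among the 49671 genes counted. The remaining one, Ntn3, was not analysed here. Of the 69, 65 had enough reads to enter the test, which covered 17519 genes.

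Total RNA came from pancreata of C57BL/6J mouse embryos at 14.5 days post coitum, in 3 control samples and 3 samples treated with 10 µM AMI-5, a small molecule known to inhibit methyltransferases that act on proteins, including those for arginine. The series title names the question as the effect of AMI-5 on pancreas differentiation. No vehicle, culture time or number of pooled organs is stated in the sources used here. Whether replicates were separate litters or cultures is not stated. A p-value here sets the group difference against the spread within the groups of these 6 samples, estimated with help from all genes tested. That spread may be technical. An earlier version of the library kit is named for samples marked A. Read literally, that mark is carried by the controls (A1 to A3) while the treated samples are marked Am, and kit version and treatment then cannot be told apart.

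Growing axons, vessels and epithelial sheets read these cues as attraction or repulsion, and most of the signals end in small GTPases that reshape the actin cytoskeleton. Ephrins are membrane-bound and bind Eph receptors on the neighbouring cell, A-type ephrins through a lipid anchor and B-type ephrins through a transmembrane protein that itself signals. Secreted class 3 semaphorins mostly act through neuropilins paired with A plexins, whereas the membrane-bound classes bind plexins directly. Slits signal through Robos, and netrins through Dcc, Neo1 and Unc5 receptors. In the embryonic pancreas the same families are known from the branching epithelium, the vessels, the mesenchyme and the ingrowing nerves.

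Depth differed by group, with 12445425 to 13321899 counted reads in the controls and 22894312 to 24805188 with AMI-5. Markers of the labelled tissue were present in all libraries. Summed CPM (read counts scaled to a common library size by edgeR's TMM factors) of 9 pancreas progenitor markers was 802 to 901 in controls and 631 to 671 with AMI-5, and that of 10 acinar markers was 54393 to 75699 in controls and 123868 to 153891 with AMI-5. In whole organs, fewer cells of a type and less RNA per cell cannot be told apart.

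Lower calls outnumbered higher ones among these genes. In edgeR's quasi-likelihood test across all genes (Benjamini-Hochberg adjusted p under 0.05), 28 of the 65 tested members were lower with AMI-5 (43.1%), 6 were higher (9.23%) and 31 had no call. Over all genes tested, 26.6% were called lower and 27.5% higher, and over protein-coding genes alone 30.6% and 20.1%. With library totals as the only scaling, 34 members were lower and 5 higher, against 38.9% and 14.5% of protein-coding genes and 33.6% and 22.6% of all genes. The share of higher calls among all called genes was then 40.2% in place of 50.9%. The median log2 fold change (AMI-5 over control) was -0.15 over the 65 members and -0.06 over protein-coding genes. The summed CPM of all 69 members was 4091, 4159 and 4317 in the controls and 3267, 3715 and 3624 with AMI-5, so the lowest control lay above the highest treated library. In the single genes, CPM did not overlap between the groups in 29 members that were lower and 11 that were higher, where 35.2% and 24.1% of protein-coding genes, and 30.6% and 31.3% of all genes, did not overlap in those directions.

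Base composition moved with these calls. The members called higher had a median exonic GC content of 43.7%, those called lower 57.05%, and those with no call 54.4%. Across the 65 members the Pearson correlation of GC content with log2 fold change was -0.45 (-0.42 without Ntn5), and across 12817 protein-coding genes of unique sequence it was -0.34, as descriptions over genes of the same 6 libraries. When the trends of counts with GC content and length were removed from each library over those 12817 genes, 18 members were lower and 12 higher, with 17 of the 28 lower and 4 of the 6 higher calls kept. In that fit 27.7% of the members were lower and 18.5% higher, against a background of 23.4% lower and 15.2% higher. The members' median log2 fold change was -0.034, and the median over the 12817 genes was -0.044. With the trends removed over all genes instead, the order turned, with 19 members higher and 15 lower against a background of 23.3% and 34.7% of all genes and 18.9% and 36.7% of protein-coding genes. Values called trend-corrected are those over unique-sequence genes.

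**Figure D1:**
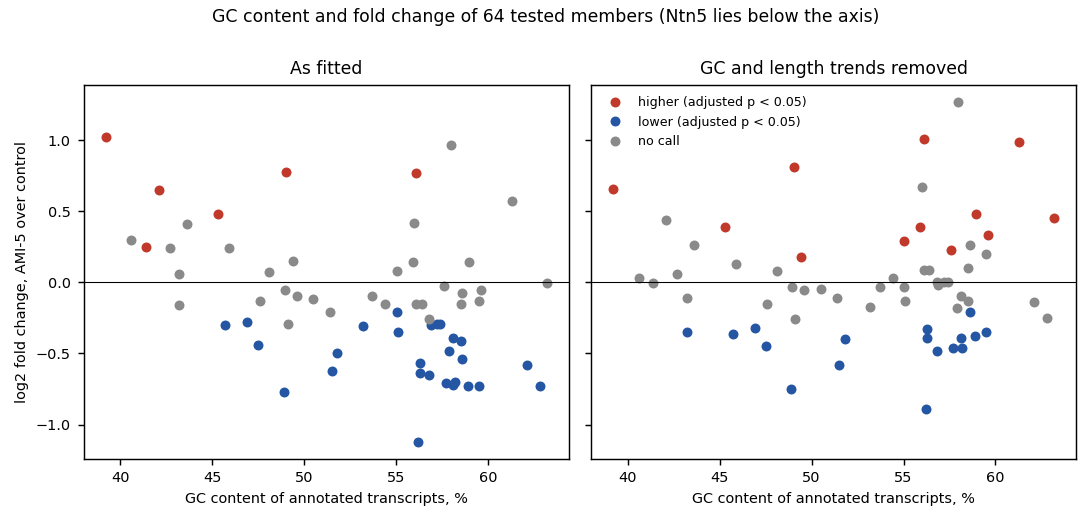
Log2 fold change (AMI-5 over control, y axis) against exonic GC content in percent (x axis) of the tested members, before (left) and after (right) the trends with GC content and length were removed over unique-sequence protein-coding genes. Each point is 1 gene, coloured by its call in the fit shown, and Ntn5 lies below the axis. Higher calls sit at a median of 43.7% GC and lower calls at 57.05% before removal.

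Of the 34 called members, 13 kept the call in the same direction under every one of the 19 alternative analyses that could test them. These were Epha4, Ephb1, Efna3, Efna4, Sema3g, Sema4b, Sema6a, Nrp1, Plxnb1, Ntn4 and Ntn5 among the lower genes and Sema3d and Plxnc1 among the higher. Ntn5 was tested in 18 of them, since it fell under the filter at a mean of 1 CPM. Among the lower ones, Ntn5 and Sema6a fell further than Plxnb1 (log2 fold changes of -2.79 and -0.77 against -0.72), but their promoters are not shown. Those shown are the promoters of the 2 that rose, and of Sema3g and Plxnb1 among those that fell. Each is the 250 bases before the RefSeq start, from the table for GRCm38.p6, whose coordinates are those of mm10. CpG dinucleotides are in capitals.
Sema3d, chr5:12382916-12383165, plus strand: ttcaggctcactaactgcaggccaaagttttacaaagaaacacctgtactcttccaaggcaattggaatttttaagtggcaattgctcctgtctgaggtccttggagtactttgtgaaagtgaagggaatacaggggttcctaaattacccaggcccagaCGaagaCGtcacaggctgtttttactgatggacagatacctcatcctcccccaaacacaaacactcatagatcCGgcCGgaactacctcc
Plxnc1, chr10:94944846-94945095, minus strand: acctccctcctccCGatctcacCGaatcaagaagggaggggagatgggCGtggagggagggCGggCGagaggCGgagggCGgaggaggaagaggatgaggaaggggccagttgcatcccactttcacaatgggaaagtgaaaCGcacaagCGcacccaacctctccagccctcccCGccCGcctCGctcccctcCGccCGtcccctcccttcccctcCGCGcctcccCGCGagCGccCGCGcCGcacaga
Sema3g, chr14:31217623-31217872, plus strand: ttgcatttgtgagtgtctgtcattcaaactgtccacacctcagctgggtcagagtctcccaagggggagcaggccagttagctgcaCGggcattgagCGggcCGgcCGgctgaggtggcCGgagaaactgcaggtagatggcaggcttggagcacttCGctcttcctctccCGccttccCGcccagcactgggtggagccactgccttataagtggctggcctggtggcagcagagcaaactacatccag
Plxnb1, chr9:109095186-109095435, plus strand: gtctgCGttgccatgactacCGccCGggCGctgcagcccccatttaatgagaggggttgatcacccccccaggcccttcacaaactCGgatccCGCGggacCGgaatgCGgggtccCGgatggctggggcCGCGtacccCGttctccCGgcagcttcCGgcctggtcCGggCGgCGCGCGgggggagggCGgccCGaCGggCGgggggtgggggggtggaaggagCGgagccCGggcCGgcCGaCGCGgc

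Sema3d and Sema3g, secreted semaphorins of the same class that moved in opposite directions, have 4 and 8 CpGs in this window. Plxnc1 and Plxnb1, receptors that likewise moved in opposite directions, have 22 and 30. A promoter was found for 59 of the 69 members, and their median was 16 CpGs, against 6 over all 32851 promoters of the table. The median was 14.5 for the higher members, 15 for the lower and 17 for those with no call, so CpG number did not separate the calls. The letters GGGCGG, on either strand, occurred in 72.9% of the members' promoters (50% of the 6 higher, 82.6% of the 23 lower and 66.7% of the 27 with no call) and 32.7% of all, and TATAAA in 3.39% and 12.4%.

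**Figure D2:**
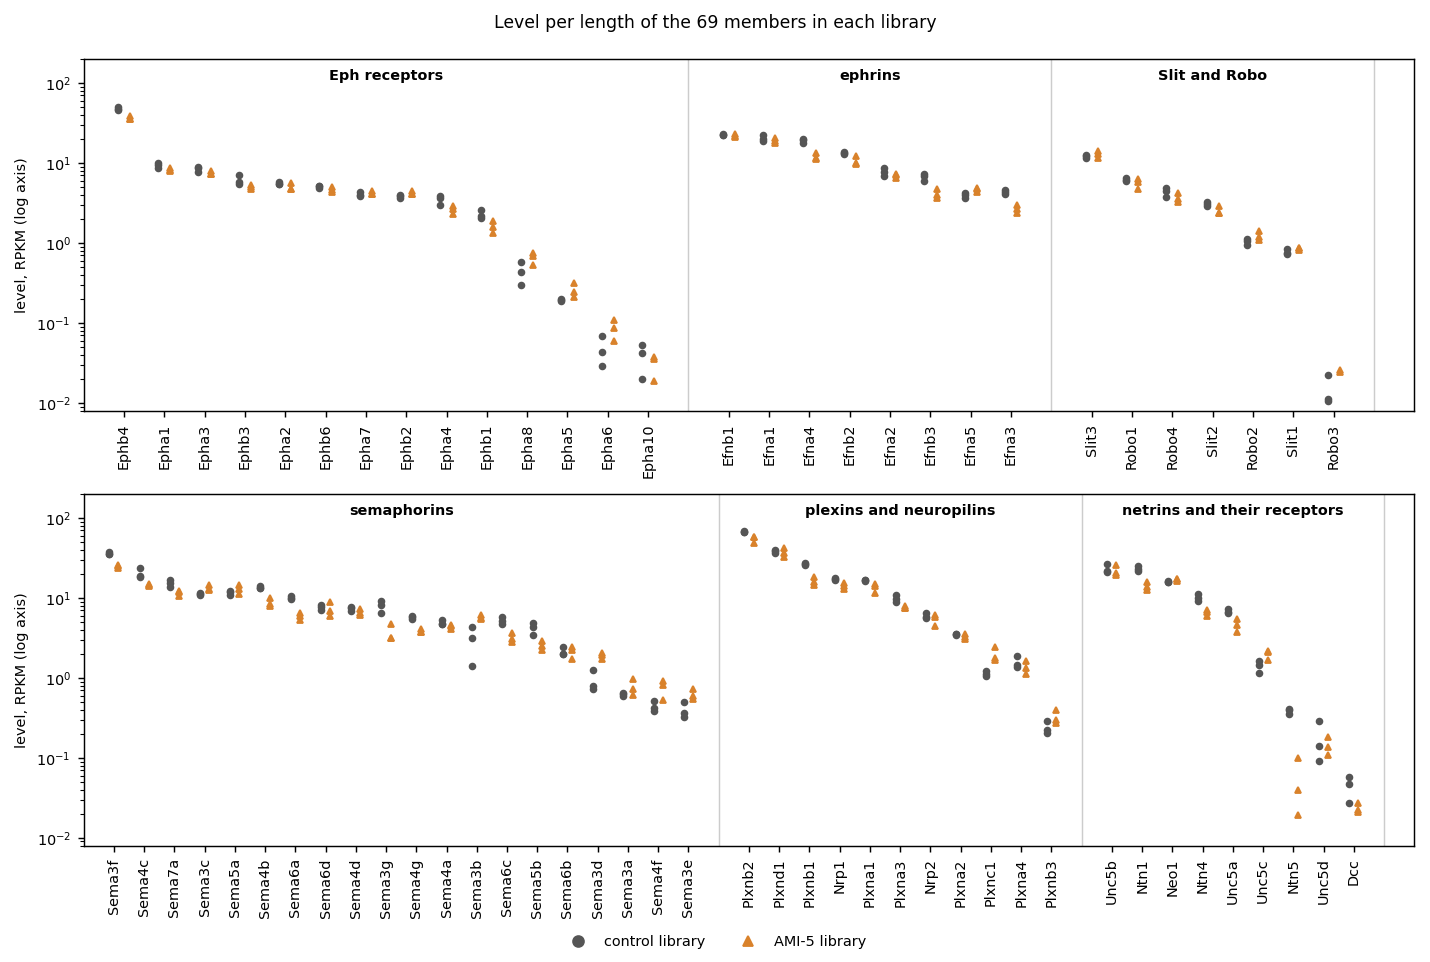
Level of each member in each library as RPKM (reads scaled to gene length and library size) on a log axis, grouped by family, with control and AMI-5 libraries as separate points. Plxnb2, Ephb4 and Plxnd1 are the highest, and Robo3, Dcc, Epha10 and Epha6 the lowest.

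Per length, receptors gave the 3 highest levels over all libraries. Plxnb2, a receptor for class 4 semaphorins, stood at 67.4 RPKM in controls and 54.9 with AMI-5, followed by Ephb4 at 48.1 and 36.6. Plxnd1, the endothelial receptor of Sema3e, stood at 38.2 and 36.9 RPKM and Sema3f at 35.8 and 24.7. At the other end, Robo3, Dcc, Epha10 and Epha6 had 1 to 13 reads per library and were not tested. Dcc, the classical attractive netrin receptor, had 3 to 6 reads in each of the 6 libraries, while its relative Neo1 stood at 16.01 RPKM in controls and 16.8 with AMI-5. Unc5d, Epha5, Plxnb3 and Ntn5 were the lowest of the tested members, at 0.158 to 0.281 RPKM over all 6 libraries.

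Among the Eph receptors, 5 of 12 tested were lower with AMI-5 (41.7%) and none higher, against 30.6% and 20.1% of protein-coding genes. Ephb4, the receptor of Efnb2 known from veins, was at 223, 212 and 234 CPM in the controls and at 164, 167 and 179 with AMI-5. All treated libraries lay below all controls, with a log2 fold change of -0.39 (SE 0.0597, edgeR adjusted p = 0.000163). After trend correction its log2 fold change was -0.093 (adjusted p = 0.201). Epha4, a receptor that binds ephrins of both types, was at 24.4, 29.6 and 31.5 CPM in controls and at 21.3, 23.1 and 18.8 with AMI-5 (log2 fold change -0.44, SE 0.11, edgeR adjusted p = 0.00504). Ephb1, which reads B-type ephrins, was at 15.5, 14.2 and 17.96 CPM and at 11.04, 13.2 and 9.46 (log2 fold change -0.5, SE 0.14, edgeR adjusted p = 0.00813). In both the groups did not overlap, and trend correction left -0.45 and -0.4.

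Smaller differences in this family lost their call without single libraries or after trend correction. Ephb3 was at 34.8, 36.6 and 44.7 CPM in controls and at 30.1, 33.1 and 31.6 with AMI-5 (log2 fold change -0.29, SE 0.093, edgeR adjusted p = 0.0191). Control 3 was its highest library, and without that control the adjusted p was 0.0895. It was 0.0757 without AMI-5 library 1 and 0.0555 without AMI-5 library 3, and trend correction put the log2 fold change at 0.0029. Epha1 was at 39.7, 34.3 and 37.6 CPM and at 31.8, 31.05 and 33.8 (log2 fold change -0.21, SE 0.076, edgeR adjusted p = 0.03597). Its groups nearly touched, and its call was lost without any 1 of 5 libraries, with adjusted p from 0.0564 to 0.154. Trend correction left -0.034 (adjusted p = 0.749). In Epha1, 6.01% of the exonic bases overlap Zyx on the opposite strand.

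The other 7 tested Eph receptors had no call. Epha2, Epha3 and Ephb6 had log2 fold changes of -0.15, -0.16 and -0.13, and Epha7, Ephb2, Epha5 and Epha8 of 0.056, 0.14, 0.41 and 0.57. Trend correction called Ephb2 higher (0.39, adjusted p = 0.000791) together with Epha8 (0.99, adjusted p = 0.009399), and Epha3 lower (-0.35, adjusted p = 0.00264). Epha8 and Ephb2 are neighbours on chromosome 4, 93.4 kb apart.

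Of the 8 ephrins, 4 were lower with AMI-5 (50%) and none higher, against 30.6% and 20.1% of protein-coding genes. Efna4 was at 30.8, 28.3 and 32.1 CPM in controls and at 18.4, 17.95 and 21.6 with AMI-5 (log2 fold change -0.65, SE 0.094, edgeR adjusted p = 0.000102). Efna3 was at 10.1, 10.6 and 11.2 CPM and at 7.27, 6.46 and 5.87 (log2 fold change -0.7, SE 0.13, edgeR adjusted p = 0.000594). Both are lipid-anchored ligands of EphA receptors, the groups did not overlap in either, and trend correction left -0.48 and -0.46. The B-type ligand Efnb3 was at 18.99, 23.4 and 22.1 CPM in controls and at 14.9, 12.8 and 11.7 with AMI-5 (log2 fold change -0.71, SE 0.12, edgeR adjusted p = 0.000258), and trend correction left -0.46. Efnb2, the arterial ligand of Ephb4, was at 90.5, 88.1 and 94.7 CPM and at 68.8, 84.7 and 66.5 (log2 fold change -0.31, SE 0.087, edgeR adjusted p = 0.0106). Its second AMI-5 library lay near the controls, and trend correction left -0.17 (adjusted p = 0.114).

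The most abundant ephrins per length did not pass the test. Efnb1 was at 78.04, 78.6 and 76.5 CPM in controls and at 73.6, 80.3 and 75.6 with AMI-5 (log2 fold change -0.022, 95% interval -0.15 to 0.1), and trend correction called it higher (0.23, adjusted p = 0.00519). Efna1 was at 36.96, 34.5 and 41.5 CPM and at 34.96, 37.7 and 32.99 (log2 fold change -0.096, 95% interval -0.28 to 0.09). Efna2 and Efna5 had log2 fold changes of -0.15 and 0.24, with no call. Efna1, Efna3 and Efna4 follow each other on chromosome 3 (mm10), with gaps of 32.8 and 10.4 kb, so the nearest pair are the ones called lower. Of their exonic bases, 14.1% in Efna3 and 10.5% in Efna4 overlap a gene on the opposite strand. Since the strand setting of the counting is not given, reads there cannot be assigned with certainty.

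**Figure D3:**
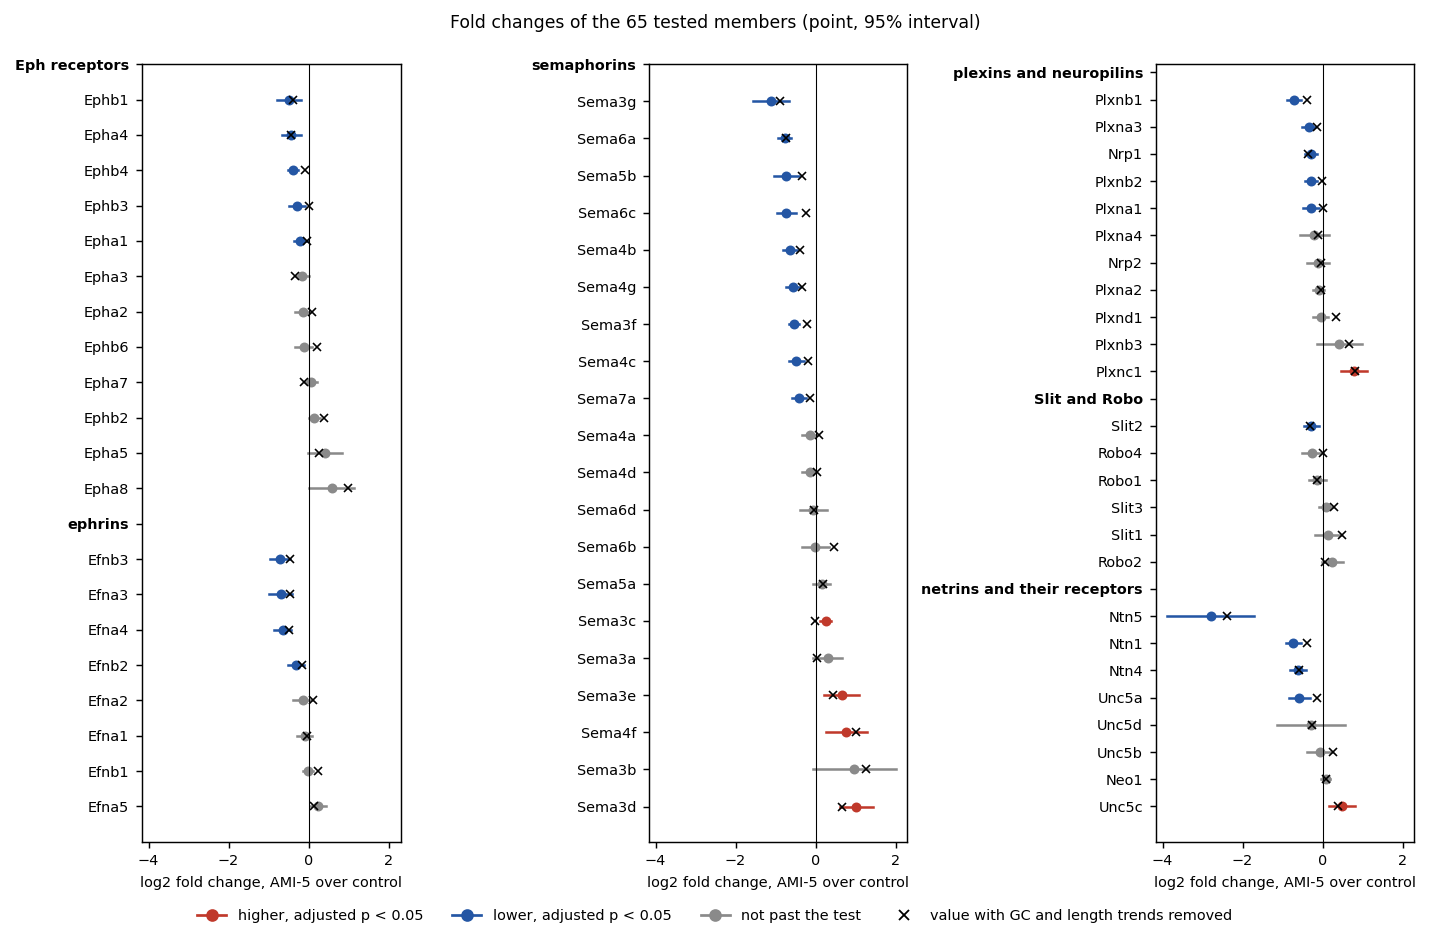
Log2 fold change (AMI-5 over control) of the tested members by family, with points coloured by call, bars for the 95% interval of the fit and crosses for the trend-corrected value. Lower calls occur in all 6 families, and the 6 higher calls lie in the semaphorins (4), Plxnc1 and Unc5c.

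Of the 20 semaphorins, 9 were lower (45%) and 4 higher (20%) with AMI-5, where the protein-coding background is 30.6% and 20.1%. Of the 7 secreted class 3 members 3 were higher and 2 lower, and of the 13 members of classes 4 to 7 1 was higher and 7 lower. After trend correction class 3 had 1 higher and 2 lower, and the other classes 3 higher and 4 lower, so the counts by class depended on the fit. The difference between the classes was not tested. Sema3d, a secreted cue of vascular and neural crest patterning, was at 6.2, 10.9 and 6.897 CPM in controls and at 16.5, 17.6 and 14.7 with AMI-5 (log2 fold change 1.02, SE 0.19, edgeR adjusted p = 0.00121). Sema3g, a secreted cue known from arterial endothelium, was at 36.7, 29.7 and 41.5 CPM and at 14.3, 21.2 and 14.3 (log2 fold change -1.12, SE 0.19, edgeR adjusted p = 0.00192). The groups did not overlap in either gene. Trend correction left 0.66 for Sema3d and -0.89 for Sema3g.

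Sema3f, a ligand of Nrp2 and the most abundant semaphorin here per length, was at 182, 193 and 183 CPM in controls and at 123, 128 and 134 with AMI-5. Its log2 fold change was -0.54 (SE 0.056, edgeR adjusted p = 8.35e-06), and -0.21 after trend correction. Sema3b lies 72.3 kb from Sema3f on chromosome 9 (mm10) and its values went the other way, at 14.9, 6.78 and 20.5 CPM in controls and at 26.1, 27.1 and 29.2 with AMI-5. Its groups did not overlap, but the controls spread so widely that the log2 fold change of 0.97 (95% interval -0.06 to 2) did not pass (edgeR adjusted p = 0.0984). Without control 2 it was 0.63 with an adjusted p of 0.00324, and without control 3 it was 1.35 with 0.0325.

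Sema3d, Sema3a and Sema3e lie in that order on chromosome 5 (mm10), with gaps of 536 and 423 kb, and Sema3c lies farther along. All 4 had positive log2 fold changes before trend correction. Sema3c was at 82.8, 79.1 and 78.6 CPM in controls and at 92.04, 91.01 and 102 with AMI-5 (log2 fold change 0.25, SE 0.063, edgeR adjusted p = 0.00557). Sema3e, the ligand of Plxnd1, was at 4.65, 3.35 and 3.03 CPM and at 5.12, 5.48 and 6.67 (log2 fold change 0.65, SE 0.2, edgeR adjusted p = 0.0146). Neither group pair overlapped. These are AT-rich genes, at 41.4% and 42.1% GC, and trend correction left -0.0053 and 0.44, with no call for either. The Sema3e call was also lost without control 2 or 3 or AMI-5 library 3, with adjusted p of 0.0563, 0.0542 and 0.0541. Sema3a, the founding repellent of the class, had a log2 fold change of 0.3 with no call, and of 0.0298 after trend correction.

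Sema6a, a transmembrane ligand of A plexins, had the smallest adjusted p of all members. It was at 92.8, 84.1 and 88.1 CPM in controls and at 46.5, 56.1 and 52.5 with AMI-5 (log2 fold change -0.77, SE 0.074, edgeR adjusted p = 3.798e-06). Trend correction hardly moved it, at -0.75. Sema4b was at 75.4, 78.7 and 75.2 CPM in controls and at 44.6, 46.95 and 55.9 with AMI-5 (log2 fold change -0.64, SE 0.0801, edgeR adjusted p = 3.71e-05). Sema4g was at 26.7, 28.3 and 28.9 CPM and at 18.04, 19.96 and 18.5 (log2 fold change -0.57, SE 0.081, edgeR adjusted p = 9.55e-05). In these 3 membrane-bound members every treated library lay below every control, and trend correction left -0.39 for Sema4b and -0.33 for Sema4g.

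Other membrane-bound semaphorins fell too, some of them only before trend correction. Sema6c was at 27.9, 30.9 and 34.3 CPM in controls and at 16.5, 21.7 and 18.04 with AMI-5 (log2 fold change -0.73, SE 0.11, edgeR adjusted p = 0.000202). Sema4c, a ligand of Plxnb2, was at 84.1, 86.6 and 107 CPM and at 64.3, 66.2 and 69.4 (log2 fold change -0.48, SE 0.088, edgeR adjusted p = 0.000882). Trend correction left -0.25 (adjusted p = 0.0642) and -0.18 (adjusted p = 0.0746). Sema5b (-0.73) and the lipid-anchored Sema7a (-0.41) were also called lower, at -0.35 and -0.13 after correction, the latter without a call. In Sema4c 7.27% of the exonic bases overlap a gene on the opposite strand. Sema4f was called higher (log2 fold change 0.77, edgeR adjusted p = 0.0165), at 2.34 ± 0.353 CPM (SD, n = 3) in controls and 3.99 ± 1.05 with AMI-5. That call was lost without control 2 (adjusted p = 0.0651) or AMI-5 library 3 (adjusted p = 0.06201), and trend correction put it at 1.01. Sema4a, Sema4d, Sema5a, Sema6b and Sema6d had no call, with log2 fold changes from -0.15 to 0.15, and trend correction called Sema6b (0.45) and Sema5a (0.18) higher.

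Of the 11 plexins and neuropilins, 5 were lower (45.5%) and 1 higher (9.09%), against 30.6% and 20.1% of protein-coding genes. Plxnb1, the receptor of Sema4d, was at 248, 264 and 254 CPM in controls and at 139, 154 and 173 with AMI-5 (log2 fold change -0.72, SE 0.076, edgeR adjusted p = 9.11e-06). Its ligand Sema4d had a log2 fold change of -0.15 with no call. Plxnb2 was at 483, 480.3 and 477 CPM in controls and at 349.6, 413 and 409 with AMI-5 (log2 fold change -0.3, SE 0.068, edgeR adjusted p = 0.00286). Treated libraries lay below controls in both receptors. Trend correction left -0.39 for Plxnb1 and -0.015, without a call, for Plxnb2.

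Plxnc1, the receptor of Sema7a that is also known from leukocytes, was called higher, whereas Sema7a was called lower before trend correction. Plxnc1 was at 8.76, 9.47 and 8.34 CPM in controls and at 12.97, 18.98 and 13.9 with AMI-5 (log2 fold change 0.78, SE 0.15, edgeR adjusted p = 0.000886), and at 0.81 after trend correction. Leukocyte markers moved with it: 6 of 9 were higher and none lower, against 20.1% and 30.6% of protein-coding genes. Their summed CPM was 456 to 478 in controls and 687 to 717 with AMI-5. Ptprc, the pan-leukocyte phosphatase, had a log2 fold change of 0.76 (edgeR adjusted p = 0.000361). The part of these cells in the Plxnc1 values was not tested.

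Nrp1, the co-receptor of class 3 semaphorins and of VEGF, was at 163, 169 and 175 CPM in controls and at 125, 139 and 148 with AMI-5 (log2 fold change -0.3, SE 0.068, edgeR adjusted p = 0.00299). The groups did not overlap, and trend correction gave -0.36. Nrp2 had a log2 fold change of -0.12 (95% interval -0.4 to 0.16) with no call. Plxna3 was at 69.4, 85.8 and 76.5 CPM in controls and at 58.6, 59.6 and 63.02 with AMI-5 (log2 fold change -0.35, SE 0.076, edgeR adjusted p = 0.00193), and Plxna1 had a log2 fold change of -0.29. Neither A plexin kept its call after trend correction, at -0.13 and 0.00601, and 10.7% of the exonic bases of Plxna1 overlap a gene on the opposite strand. Plxna2, Plxna4 and Plxnb3 had no call, at -0.097, -0.21 and 0.42.

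Plxnd1 did not pass the test. It was at 263, 285 and 289 CPM in controls and at 238, 304 and 266 with AMI-5, with overlapping groups and a log2 fold change of -0.052 (95% interval -0.24 to 0.13). Trend correction called it higher (0.33, adjusted p = 0.00206). Endothelial markers, among which Plxnd1 is commonly counted, were lower in 4 of 14 and higher in none (1 of 14 lower after trend correction), where 30.6% of protein-coding genes were lower, with a summed CPM of 769 to 914 in controls and 643 to 846 with AMI-5. The groups overlapped in that sum, and its part in the values of Plxnd1, Nrp1, Efnb2, Ephb4, Sema3g and Robo4 was not tested.

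The Slits and Robos held the fewest calls, 1 lower among 6 tested (16.7%), where 30.6% of protein-coding genes were lower. Slit2, a secreted repellent, was at 74.9, 78.4 and 82.6 CPM in controls and at 60.4, 74.2 and 60.1 with AMI-5 (log2 fold change -0.28, SE 0.084, edgeR adjusted p = 0.0158). Its second AMI-5 library lay just under the controls. The call was lost without control 3 or AMI-5 library 1 or 3, with adjusted p of 0.0543, 0.0624 and 0.0636, and was kept after trend correction at -0.32. Slit3 was at 76.7, 70.7 and 74.7 CPM and at 69.8, 85.8 and 79.5 (log2 fold change 0.082, 95% interval -0.08 to 0.25). Its receptor Robo1 was at 45.9, 44.7 and 48.9 CPM and at 35.8, 47.7 and 44.1 (log2 fold change -0.13, 95% interval -0.35 to 0.09). Groups overlapped in both, and trend correction called Slit3 higher (0.29, adjusted p = 0.006098).

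Slit1, Robo2 and the endothelial Robo4 had no call, with log2 fold changes of 0.14, 0.24 and -0.26. Trend correction called Slit1 higher, at 0.48 (adjusted p = 0.0291). Robo4 ends 554 bases from Robo3, which had 1 to 4 reads per library.

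All 3 netrins counted were lower with AMI-5, where 30.6% of protein-coding genes were lower. Ntn1, the secreted founding member, was at 155, 144 and 137 CPM in controls and at 86.5, 78.2 and 98.04 with AMI-5 (log2 fold change -0.73, SE 0.083, edgeR adjusted p = 2.03e-05). Ntn4, a basement membrane netrin, was at 37.5, 41.3 and 34.03 CPM and at 25.04, 22.1 and 26.2 (log2 fold change -0.62, SE 0.092, edgeR adjusted p = 0.000137). Neither overlapped between the groups, and trend correction left -0.38 and -0.58. Ntn5 was at 0.775, 0.875 and 0.909 CPM in controls and at 0.224, 0.0891 and 0.0422 with AMI-5 (log2 fold change -2.79, SE 0.5, edgeR adjusted p = 0.000527). It had the lowest fold change of all members but rested on 10 to 12 reads per control and 1 to 5 per AMI-5 library. Trend correction left -2.38. Of its exonic bases 23.4% overlap Sec1 on the opposite strand, so its reads cannot be assigned with certainty.

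The Unc5 receptors, which turn the netrin signal to repulsion, did not follow the netrins as a group. Unc5a was lower, at 30.7, 26.96 and 27.7 CPM in controls and 18.98, 15.8 and 22.4 with AMI-5 (log2 fold change -0.58, SE 0.12, edgeR adjusted p = 0.00167). Unc5c was higher, at 22.1, 27.7 and 31.5 CPM and 31.6, 41.4 and 40.4 (log2 fold change 0.48, SE 0.14, edgeR adjusted p = 0.0211). The highest control and the lowest treated library of Unc5c nearly touched, and its call was lost without control 2 (adjusted p = 0.0621) or AMI-5 library 2 (adjusted p = 0.0502), and with library totals as the only scaling (adjusted p = 0.0723). Trend correction kept Unc5c at 0.39 and left Unc5a at -0.14 without a call. Unc5b, the most abundant of them, was at 125, 127 and 154 CPM and at 120.1, 152 and 113 (log2 fold change -0.074, 95% interval -0.38 to 0.23). Neo1 and Unc5d had log2 fold changes of 0.073 and -0.29 with no call.

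**Figure D4:**
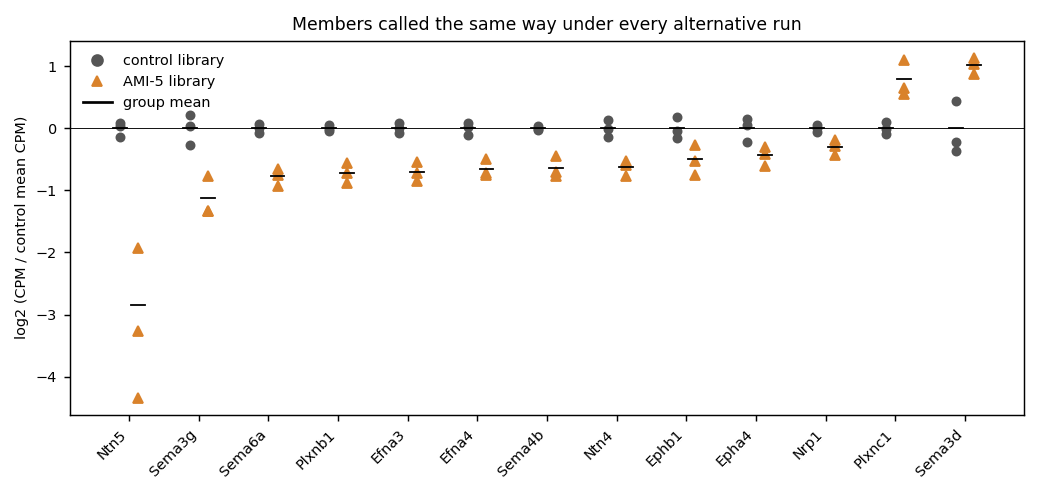
Log2 of CPM over the mean control CPM (y axis) in each of the 6 libraries, for the 13 members whose call was kept under every alternative that tested them. Circles are control and triangles AMI-5 libraries, and short lines are group means. In each gene the 3 AMI-5 libraries lie on 1 side of the 3 controls, above them for Sema3d and Plxnc1 and below them for the other 11. Since the genes were chosen by their calls, this separation adds no support to those calls.

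Counted by role, 17 of 34 ligands were lower (50%) and 4 higher (11.8%), and of 31 tested receptors 11 were lower (35.5%) and 2 higher (6.45%). Among protein-coding genes 30.6% were lower and 20.1% higher. After trend correction 13 ligands (38.2%) and 5 receptors (16.1%) were lower, and 7 ligands (20.6%) and 5 receptors (16.1%) higher. The background in that fit was 23.4% lower and 15.2% higher. The difference between ligands and receptors was not tested. The summed CPM of the ligands was 1636 to 1712 in controls and 1286 to 1439.9 with AMI-5, and that of the receptors 2455 to 2604 and 1981 to 2275. Neither sum overlapped between the groups.

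Other genes of the same pathways were taken from 5 lists that hold no members. They are effectors and co-receptors, with some ligands and binding proteins such as Rgma, Rgmb and Draxin. Lower calls outnumbered higher ones in 4 of the lists. Over the 84 genes counted once, 37 were lower (44.05%) and 11 higher (13.1%), against 30.6% and 20.1% of protein-coding genes, with a median log2 fold change of -0.14. After trend correction 24 of 78 were lower and 2 higher, against a background of 23.4% and 15.2% in that fit. Dpysl2, the collapsin response mediator that carries semaphorin signals to microtubules, was at 116, 115 and 120.1 CPM in controls and at 59.2, 57.2 and 53.01 with AMI-5 (log2 fold change -1.05, SE 0.0604, edgeR adjusted p = 3.301e-08). It had the smallest p of the semaphorin-plexin list, in which 12 of 22 were lower and 1 higher. The next smallest p-values were those of the actin-oxidising Mical1 (-0.55) and the RhoGAP Sh3bp1 (-0.41), the latter with 54.7% of its 50-mers shared with another gene.

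In the Eph-ephrin list 10 of 20 were lower and 2 higher. The kinase Src was at 158, 138 and 147 CPM in controls and at 87.5, 85.8 and 90.9 with AMI-5 (log2 fold change -0.75, SE 0.063, edgeR adjusted p = 1.13e-06). The Rac exchange factor Tiam1 had a log2 fold change of -0.92 and Rgs3, which links B-type ephrins to G proteins, of -0.62. In the Slit-Robo list 10 of 19 were lower and 2 higher, and the smallest p-values were those of the actin regulator Vasp (-0.46), Srgap3 (-0.47), a RhoGAP bound by Robos, and the kinase Abl1 (-0.41). In the netrin list 8 of 18 were lower and 2 higher, and the smallest p-values were those of the Neo1 ligand Rgmb (-0.73), Abl1 again and the Neo1 ligand Rgma (-0.39). Draxin, a secreted netrin-binding protein named after its value was seen, had the largest fall of that list (-0.76). In the shared cytoskeletal list 4 of 12 were higher and 2 lower, and after trend correction none of 11 was higher and 2 were lower. Before it, the actin-severing Cfl1 (-0.71) and the kinase Pak4 (-0.59) were lower, and Rock1, the kinase downstream of RhoA, was higher (0.32).

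Marker lists of several cell types differed between the groups as well. The widest shift was in erythroid markers, with 5 of 6 tested higher and 1, the embryonic globin Hbb-y, lower. Their summed CPM was 12.7 to 33.1 in controls and 80.6 to 243 with AMI-5, and AMI-5 library 2 stood apart, with the adult globin Hbb-bs at 87.04 CPM against 31.9 and 26.4 in the other treated libraries. Hbb-bs, Hbb-bt, Hba-a1 and Hba-a2, all among the higher ones, share 53.2% to 89.3% of their 50-mers with another gene. They are therefore not independent markers. After trend correction only 2 erythroid markers were tested, with 1 higher and 1 lower. Of 10 neuron markers 5 were lower and 1 higher, with sums of 270.1 to 306 in controls and 185 to 218 with AMI-5, and of 7 glial and neural crest markers 3 were lower and 1 higher, at 152 to 162 and 119.7 to 146. After trend correction 3 neuron markers and 1 glial marker were lower.

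Of 10 epithelial markers 7 were lower and 1 higher, and 4 of 9 lower and 2 higher after trend correction. Of 9 pancreas progenitor markers 8 were lower, and 3 of 8 after trend correction. Of 10 endocrine markers 5 were lower and 1 higher, and 4 of 9 lower and 1 higher after it, with sums of 4331 to 4981 in controls and 4592 to 5963 with AMI-5. Mesenchymal markers were lower in 4 of 13 and higher in 4 (1 and 4 after correction), with sums of 10372 to 10883 and 10167 to 11723, and 1 of 6 mesothelial markers was higher. Of acinar markers 5 of 10 were higher and 1 lower in both fits. These counts stand against 30.6% lower and 20.1% higher over protein-coding genes, and 23.4% and 15.2% after trend correction. No marker was at 0 in all libraries, and the part of cell makeup in the members' values was not tested.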

How the data were processed

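RNA sequencing libraries of 3 control and 3 AMI-5 samples were analysed from 1 table of raw read counts per gene, as deposited by the authors. The tools named, per the submitters' processing notes, are featureCounts 1.6.2, GSNAP 2018-05-30 and bcl2fastq 2.19.1, with build mm10, and Ensembl release 87 is the annotation per the file headers. How the counting treated strand is not given in the sources used here. Left out were 92 spike-in entries, with 1 read in all. Depth is better in the AMI-5 group, so counting error weighs most on low genes in controls. Symbols, biotypes and GC content came from GENCODE M21 (mm10), which gave a symbol to 49412 of 49671 genes. Unique-sequence genes are protein-coding genes with under 5% of exonic 50-mers in another gene.

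The test was that of edgeR 4.0.16 in R 4.3.3 (TMM, filterByExpr, robust quasi-likelihood F test, two-sided) over all genes, with Benjamini-Hochberg adjustment over the 17519 tested. The common biological coefficient of variation was 9.65%. CPM and RPKM were computed with TMM-scaled library sizes and the deposited merged exon lengths. The fitting script was tested on simulated data.

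Values per library are given, within each of 6 families, for up to 5 called members with the smallest p, up to 2 with the highest level per length and the called member with the largest fold change at 1 CPM or more. Values of Sema3b, Sema3c, Sema3d and Sema3e stand outside that rule, chosen after they were seen, as do the fold changes given in groups. Genes of the pathway lists are those with the smallest p, up to 3 a list. Members, gene lists and tests were chosen with earlier results of these data known. Alternatives were scaling by RLE, by the upper quartile or by totals only, no filter and a filter at a mean of 1 CPM, DESeq2 1.42.0, limma 3.58.1 (voom), a replicate block, fits over protein-coding or unique-sequence genes, removal of GC and length trends over all or unique-sequence genes, thinning to the smallest library, and leaving out each library.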

Additional observations from a re-analysis of the deposited data

How the results depend on the processing

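The call in each direction was followed through 19 alternatives. Whether the replicate numbers in the titles pair the samples is not stated. The correlations of same-numbered samples' deviations from their group means were -0.0579, -0.0377 and -0.048. Those of differently numbered samples ran from -0.0166 to 0.063. No shared replicate effect was visible, which cannot decide whether the samples were paired by design. With the replicate number as a block, 6 members were higher and 28 lower, as without it, and the block changed no call of a member; over all genes it gave 4704 higher and 4482 lower calls. Leaving out 1 library at a time gave 5 to 10 higher and 25 to 29 lower members, the 10 coming without AMI-5 replicate 1.

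Beyond that, the trend removals were the alternatives that moved a count by over 1.5 times. Over all genes, 19 members were higher and 15 lower, with 4 of the 6 and 11 of the 28 calls kept. With unique-sequence genes the counts were 12 higher and 18 lower, with 4 and 17 kept. The lower calls of Efnb3, Ntn1, Sema3f, Sema4g, Sema5b and Slit2 were kept there but lost with trends removed over all genes. In the latter fit their edgeR adjusted p ran from 0.0501 (Efnb3) to 0.391 (Sema5b). Some members changed sign and had a call in the reported fit, in the alternative or in both. Over all genes these were Epha1 (0.151), Epha2 (0.283), Epha7 (-0.301), Ephb3 (0.125), Ephb4 (0.199), Ephb6 (0.617), Efnb1 (0.482), Sema3c (-0.152), Sema3f (0.0675), Sema4c (0.0964), Sema6b (1.25), Sema6c (0.364), Sema7a (0.15), Plxna1 (0.051), Plxnb2 (0.0461), Plxnd1 (0.561), Unc5a (0.535) and Unc5b (0.481), as log2 fold changes. Over unique-sequence genes they were Ephb3 (0.00292), Efnb1 (0.232), Sema3c (-0.00534), Sema6b (0.454), Plxna1 (0.00601) and Plxnd1 (0.327). Only Ephb4, Sema6c and Unc5a were called in both fits in opposite directions, with trends removed over all genes. Which of the fits is nearer to the RNA in the tissue was not tested. The share of higher calls over all genes was 50.9% as reported, 40.2% with totals only, 56.96% under upper-quartile scaling, 57.5% without a filter and 39.3% with trends removed over unique-sequence genes. Depth limits Dcc, Epha10, Epha6 and Robo3, with 1 to 13 reads per library, and Ntn5.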
